A study of Gallus gallus with 12 samples.

Results

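The mRNAs described here had lower levels in the liver of the juvenile hen than at each of the later stages examined. They were chosen from the measured values themselves. The stage mean of each transcript was taken as the mean of log2(FPKM + 1) over the 3 livers of a stage, where FPKM is the number of fragments relative to transcript length and to all fragments mapped in that liver. A transcript was a member when its means at sexual maturity, peak laying and broodiness each exceeded the juvenile mean by at least 1, lay within 1 of one another, and the highest stage mean was at least 2. A difference of 1 on this scale is close to a doubling for an abundant transcript and more than a doubling for a scarce one. Of 18260 mRNAs in the table, 119 (0.652%) met the rule. All 119 also passed the filter on low values used for the model across transcripts, FPKM above 0.1 in at least 3 livers, as did 16703 mRNAs in all. Because the rule used every stage mean, the differences between stages describe the members and are not evidence for their pattern.

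Liver was taken from Luhua hens, a native breed of China, 3 for each of 4 stages and all described as healthy. These were the juvenile period (JP, day 60), the sexual maturity period (SM, day 133), the peak laying period (PL, day 220) and the broodiness period (BP, day 400). The labels name no treatment. Each stage had its own age and reproductive period, so age and period cannot be told apart. Laying itself did not follow age, as the paper describes egg production as absent at SM and BP. Whole liver was sequenced after removal of ribosomal RNA, 1 library for each of the 12 hens, and in such bulk tissue fewer cells of a type and less RNA per cell cannot be told apart.

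In birds the liver is the main site of fatty acid synthesis, and from sexual maturity it also makes the precursors of egg yolk. Rising estrogen turns on hepatic genes for vitellogenins and for the apolipoproteins of yolk-targeted lipoprotein particles, and these products travel through the blood to the growing oocytes. During broodiness prolactin is high, the ovary regresses and laying stops.

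The deposited table lists transcripts by Ensembl identifier without gene names. The chicken gene table held here, from RefSeq assembly GRCg7b, carries no Ensembl identifiers, so no symbol could be assigned (0 of 18260 mRNAs matched). The members are for this reason described by level, gain and rank, and 2 of them by identifier. Lists of yolk, lipid, bile acid, immune and cell cycle genes could not be counted, and the tissue label could not be checked against markers of hepatocytes or other liver cells. No sequence could be matched to a member.

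The libraries were not alike in total. FPKM summed over all mRNAs was between 688208 and 772041 in the 6 livers of SM and BP and between 408296 and 539529 in the 6 livers of JP and PL. PL and JP livers thus lay on the same side of this division, whereas SM and BP livers lay on the other side from JP livers. The PL livers, at 408296 to 478988, nonetheless all lay below the JP livers, at 516697 to 539529. At each later stage, the stage and its difference from JP in summed FPKM cannot be told apart. The paper also lists a lower share of mapped reads for every SM and BP library than for any JP or PL library. The labels name no batch, and the source of these differences was not tested. The median difference from JP over all 16703 mRNAs tested was 0.22 in SM, -0.04 in PL and 0.14 in BP livers on the log2(FPKM + 1) scale, and the members' differences are to be read against these shifts.

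The 119 members were of middling abundance at JP and higher in rank later. Their median stage mean was 2.29 in JP, 3.99 in SM, 3.89 in PL and 3.94 in BP livers on the log2(FPKM + 1) scale. The medians of all mRNAs tested were 1.78, 2.23, 1.76 and 2.07 at the same stages, and the upper quartiles 3.44, 3.67, 3.24 and 3.56. The median member thus lay below that quartile at JP and above it at each later stage. The rule asked for gains and for a highest stage mean of at least 2, so this follows in part from the choice. In mean FPKM the median member had 3.97 in JP, 15.0 in SM, 14.2 in PL and 14.4 in BP livers. The members covered a wide range, from 0.318 to 265 mean FPKM at JP and from 1.68 to 1670 at BP. None was listed at 0 in any liver, so the group holds transcripts that were already present in the juvenile liver. Only 11 members had a JP mean under 1 on the log2 scale, and 13 had one of at least 5.

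The gain was seen in the typical liver of each later stage. The median over members was 2.26, 2.50 and 2.32 in the 3 JP livers, 3.84, 3.94 and 3.95 in the SM livers, 3.56, 4.02 and 4.01 in the PL livers and 4.04, 3.80 and 3.94 in the BP livers. The lowest of these later medians, in PL replicate 1, was thus more than 1 above the highest juvenile one, in JP replicate 2. Over all mRNAs tested the median ranged from 2.19 to 2.26 in SM livers, from 1.54 to 1.996 in PL livers and from 2.001 to 2.16 in BP livers, against 1.72 to 1.91 in JP livers, so PL and JP livers overlapped there.

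**Figure D1:**
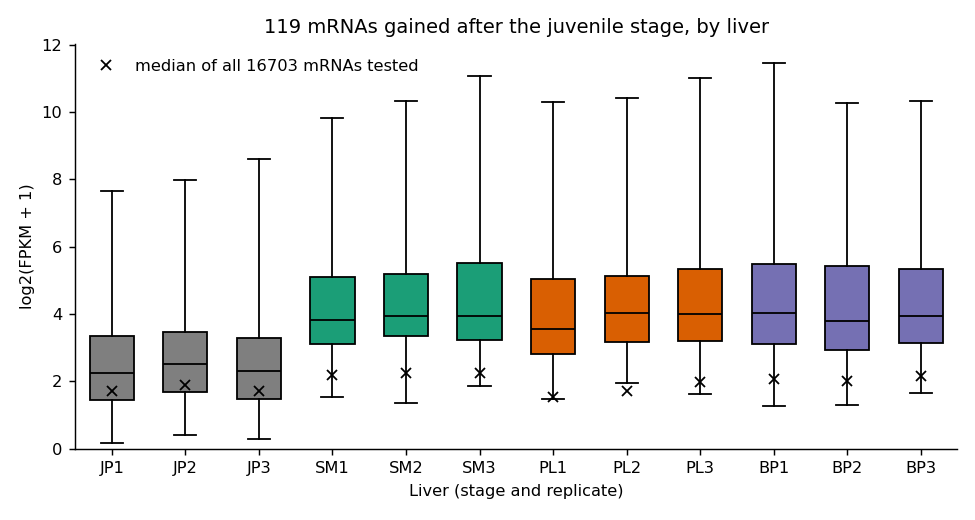
Levels of the 119 members in each liver on the log2(FPKM + 1) scale. Boxes show the quartiles and median over members, whiskers the lowest and highest member, and crosses the median of all 16703 mRNAs tested. The member medians lie between 2.26 and 2.50 in the JP livers and between 3.56 and 4.04 in the 9 later livers, while the crosses stay between 1.54 and 2.26.

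The median gain over JP was 1.51 at SM (quartiles 1.29 and 1.80), 1.43 at PL (1.23 and 1.79) and 1.55 at BP (1.29 and 1.90) on the log2(FPKM + 1) scale. As a ratio of mean FPKM the median member was 3.39 times its JP level at SM, 3.24 times at PL and 3.64 times at BP. A ratio of at least 4 was reached by 45 members in SM, 41 in PL and 50 in BP livers. The 40 members that were lowest at JP had larger ratios, with medians of 4.83 in SM, 4.55 in PL and 4.54 in BP livers, than the 40 that were highest at JP, with 2.88, 2.85 and 3.32. Their smallest gains on the log2 scale were close, with medians of 1.32 and 1.297. The 1 added before the logarithm compresses the change of scarce transcripts on this scale. The rule thus required larger ratios of members that were scarce at JP, and the difference in ratio follows in part from it.

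To see how the gains stood against the spread between hens, all 12 livers were fitted in a limma model with a mean for each stage, and a transcript was called at a Benjamini-Hochberg adjusted p under 0.05 with at least a 1.5-fold difference. Called higher at SM than at JP were 115 of the 119 members, where 20.9% of all mRNAs tested were called higher. At PL 113 members were called higher than at JP, where 6.58% of all were. At BP 113 members were called higher than at JP, where 16.4% of all were. In all 3 comparisons together 111 members were called, beside 2.87% of all mRNAs tested. The 3 comparisons share the JP livers, and the rule chose the members on these same differences, so the counts only describe how many members had gains above the pooled spread between livers. Of the remaining members, 2 were called in 2 comparisons, 4 in 1 and 2 in none.

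Liver by liver, 109 of the 119 members had all 9 later livers above all 3 JP livers, where this held for 7.87% of all mRNAs tested. Within single stages the SM livers lay above the JP livers without overlap in 115 members, the PL livers in 114 and the BP livers in 115, where this held for 42.7% of all mRNAs tested at SM, 13.5% at PL and 33.1% at BP. Among the 10 members with overlap, JP replicate 2 reached into the later range in 6, and JP replicates 1 and 3 in 4 each. On the later side the low liver was BP replicate 1 in 4 members and SM replicate 1 and PL replicate 1 in 3 members each, and every other later liver was low in at most 2. The overlaps were thus spread over JP livers and over later stages.

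The member with the largest gain was ENSGALT00000065851, ranked by the smallest of its 3 differences from JP. It had 11.1, 9.99 and 12.98 FPKM in the JP livers, 195, 294 and 442 FPKM in the SM livers, 310.0, 534 and 655 FPKM in the PL livers and 948, 292 and 295 FPKM in the BP livers. The lowest later liver was far above the highest JP liver, and within the later stages BP replicate 1 stood well above the other BP livers. On the log2(FPKM + 1) scale its means were 3.62 ± 0.17 in JP, 8.20 ± 0.59 in SM, 8.90 ± 0.56 in PL and 8.77 ± 0.97 in BP livers (SD, n = 3 livers each). The gains were 4.58 in SM, 5.28 in PL and 5.15 in BP livers, or 27.4, 44.0 and 45.1 times the JP mean FPKM. The later means differed from each other by at most 0.70, while the SD over the livers of a later stage was between 0.56 and 0.97.

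The member with the highest level after the juvenile stage was ENSGALT00000082552. It had 148, 145 and 180.1 FPKM in the JP livers, 904, 1279 and 2153 FPKM in the SM livers, 642, 1263.5 and 879 FPKM in the PL livers and 2814.5, 916 and 1280.2 FPKM in the BP livers. The livers of the later stages overlapped widely with each other and not with the JP livers. Its means were 7.30 ± 0.17 in JP, 10.41 ± 0.63 in SM, 9.80 ± 0.49 in PL and 10.54 ± 0.83 in BP livers on the log2(FPKM + 1) scale (SD, n = 3 livers each). The gains were 3.10, 2.50 and 3.24 at SM, PL and BP, or 9.16, 5.88 and 10.6 times the JP mean FPKM, and it ranked 4 of the 119 by smallest gain. With either liver group short of 1 replicate, with 0.1 added, or after median-ratio scaling, its gains stayed between 2.70 and 3.39 at SM, 2.25 and 2.74 at PL and 2.78 and 3.59 at BP. Both transcripts were tightly grouped in the juvenile livers and spread out later, and both had SM replicate 1 as the lowest SM liver and BP replicate 1 as the highest BP liver.

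**Figure D2:**
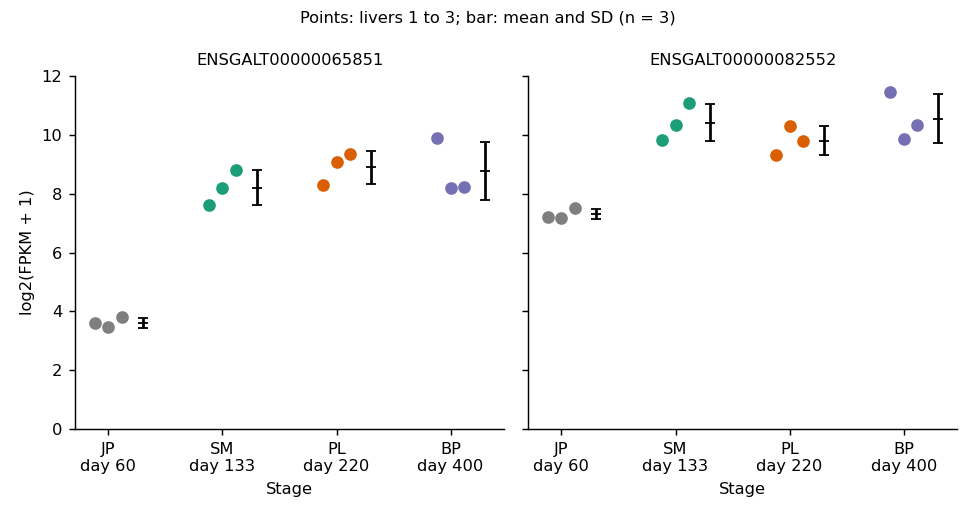
ENSGALT00000065851 and ENSGALT00000082552 in each liver on the log2(FPKM + 1) scale, by stage. Points are livers in the order of their replicate numbers and the bars give the mean and SD of 3 livers. The JP livers lie near 3.62 and near 7.30, below every later liver of the same transcript.

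Large gains were rare among the members. Only 2 members had a smallest gain of at least 3, and 10 had one of at least 2. A smallest gain of at least 1.5 was found for 31 members, and 33 lay under 1.1, close to the limit of the rule. The second of the members ranked by smallest gain was a scarce transcript in the juvenile, with 1.24 ± 0.81 at JP and means of 5.75 in SM, 5.81 in PL and 6.56 in BP livers on the log2(FPKM + 1) scale (SD, n = 3 livers). It had the largest ratio of mean FPKM of any member, 58.2 times JP at BP. That ratio rests on low JP values of 0.819, 0.620 and 3.51 FPKM, with a mean of 1.65. The 10 members with gains of at least 2 showed no overlap between later and JP livers, where this held for 7.87% of all mRNAs tested. They were picked for large gains over JP, so this follows in part from the choice. Of these 10, 5 were highest at PL and 5 at BP.

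Some members met the rule with livers that disagreed. The widest spread at JP belonged to the member ranked 20 by smallest gain, singled out after its values were seen. It had 11.8, 69.4 and 7.14 FPKM in the JP livers, and its SM livers had 33.0, 83.1 and 104.8 FPKM. The PL livers of the same transcript had 89.4, 68.3 and 44.2 FPKM and the BP livers 43.0, 187 and 42.5 FPKM, so JP replicate 2 lay inside the later range. The widest spread at PL belonged to the member ranked 52, with 95.6, 97.8 and 8.67 FPKM in the PL livers and 11.3, 31.5 and 6.87 FPKM in the JP livers. There PL replicate 3 was at the juvenile level while the other PL livers were far above it.

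**Figure D3:**
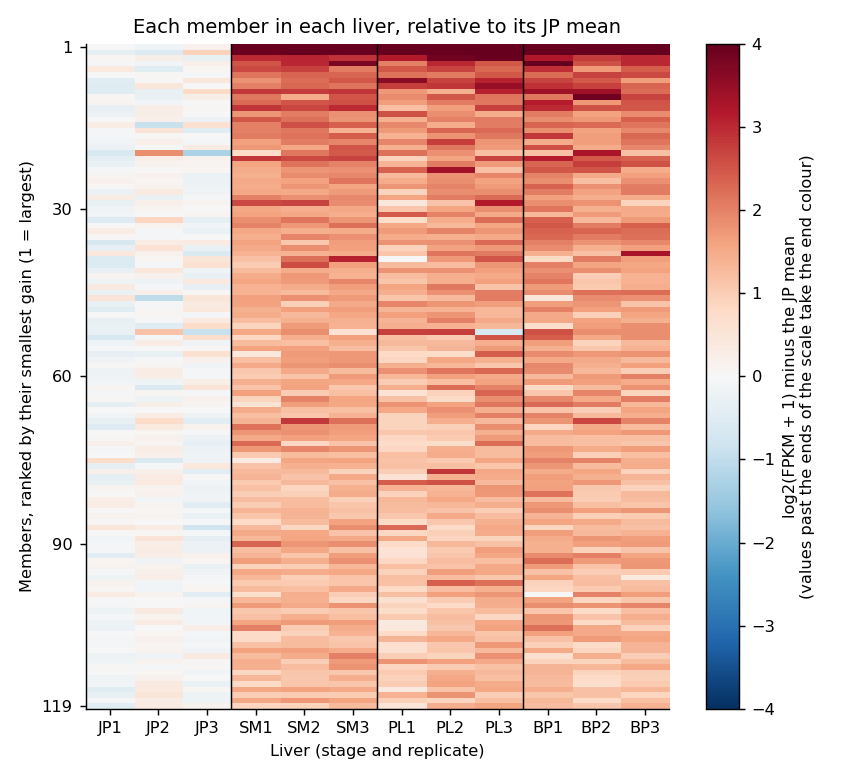
Each of the 119 members (rows, ranked by smallest gain) in each of the 12 livers (columns), as log2(FPKM + 1) minus the JP mean of that member. The colour scale runs from blue (lower than JP) to red (higher than JP) and the top rows pass its upper end. Most rows are red in all 9 later livers, as 109 of the 119 members had no overlap, and the colour is deepest in the top rows.

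The means of the later stages were bounded by the rule and usually lay closer together than it required. The range among SM, PL and BP had a median of 0.44 on the log2(FPKM + 1) scale, and it was at most 0.5 in 68 members and at most 0.25 in 27. The highest mean was at BP in 49 members, at SM in 36 and at PL in 34. The lowest of the later means was at PL in 52 members, at SM in 41 and at BP in 26. A steady order of SM below PL below BP was found in 21 members and the opposite order in 12, and PL was below both SM and BP in 28 members that were highest at BP and in 24 that were highest at SM. At its own highest stage the median member reached 4.83 at BP for those highest at BP, beside 3.72 at PL for those highest at PL and 3.75 at SM for those highest at SM. The members highest at BP were also higher at JP, with a median of 2.90, beside 1.93 for PL and 2.16 for SM. The median gains over JP at the stage of the highest mean were 1.83 for BP, 1.80 for PL and 1.66 for SM.

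Few members were called between the later stages, whose distance the rule itself bounds. PL and SM differed in 12 members, 6 higher and 6 lower at PL, where 29.2% of all mRNAs tested were called in either direction. BP and PL differed in 10 members, 6 higher and 4 lower at BP, where 22.0% of all were called. BP and SM differed in 1 member, higher at BP, where 1.16% of all were called. In total 100 members were called in none of these comparisons, as were 67.0% of all mRNAs tested. The count between PL and SM turned on single livers. It was 5 without PL replicate 1, 4 without PL replicate 2 and 22 without PL replicate 3, and it was 5 without SM replicate 1, 6 without SM replicate 2 and 3 without SM replicate 3. Calls over all mRNAs tested moved as well. Without PL replicates 1, 2 and 3 they were 547, 455 and 621 higher and 3211, 3652 and 5604 lower at PL than at SM. Without SM replicates 1, 2 and 3 they were 433, 478 and 491 higher and 4165, 3686 and 3652 lower. The single call between BP and SM was absent without any 1 of the SM or BP livers and became 2 without PL replicate 3. Over all mRNAs tested, 77 were called higher and 117 lower at BP than at SM with all livers. Without 1 of the SM or BP livers, 33 to 79 were called higher and 41 to 98 lower. Without PL replicate 3 these numbers were 126 and 293. After median-ratio scaling, which divides each liver by 1 factor, 34 members were called higher and 0 lower at PL than at SM, where 10.6% of all mRNAs tested were called in each direction. At BP 0 members were called higher and 14 lower than at PL under this scaling, where 10.2% of all were called higher and 9.05% lower. The rule had held the later means of members within 1 of one another before scaling. Their median PL minus SM was -0.02 before scaling and 0.48 after it, beside -0.29 and -0.02 over all mRNAs tested. The 1-sided counts of members thus follow in part from the rule and the factors.

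**Figure D4:**
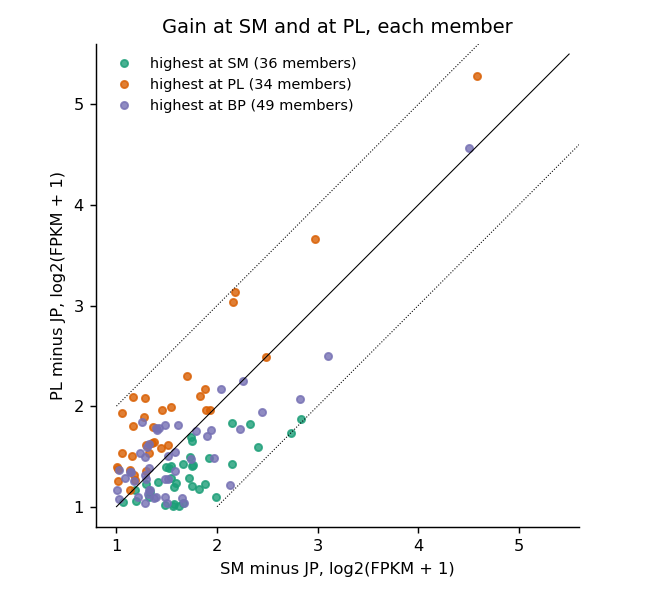
Gain at SM (x axis) and at PL (y axis) over JP for each member on the log2(FPKM + 1) scale, coloured by the stage of the highest mean. The solid line marks equal gains and the dotted lines the limit of 1 between the stage means. Most members lie between 1 and 2 on both axes, and the 2 members past 4 on both axes are those with the largest smallest gains.

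Because the libraries differed in total, the members were read again after median-ratio scaling, where the factor of a liver is the median over mRNAs of the value relative to the geometric mean over livers. These factors were 1.16 to 1.26 in SM livers, 0.685 to 1.04 in PL livers and 1.02 to 1.17 in BP livers, against 0.879 to 1.02 in JP livers. The smallest gain of any member at any later stage was then 0.61. The median gain of the members became 1.15 in SM, 1.59 in PL and 1.36 in BP livers, while that of all mRNAs tested became 0.04, 0.00331 and 0.04. The rule as such was then met by 94 mRNAs, of which 66 were among the 119. Of the members that no longer met it, 47 missed a gain of 1 (40 at SM and 21 at BP, and 0 at PL), 13 missed the limit between later stages, and 7 of these missed both. The stage of the highest mean moved as well, to PL in 81 members, BP in 28 and SM in 10. These shifts follow from the factors, which move all transcripts of a liver together, and with gains of at least 1 to begin with no direction over JP could turn.

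**Figure D5:**
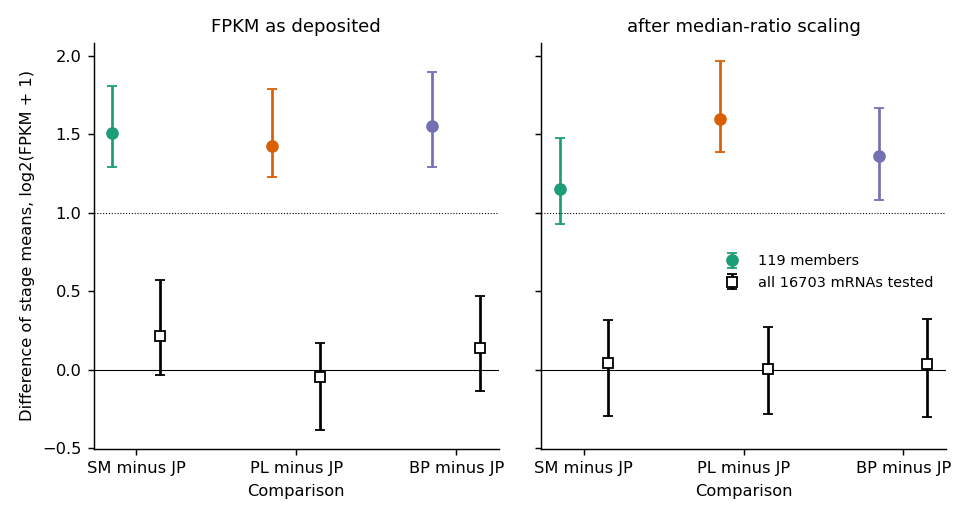
Difference of stage means from JP on the log2(FPKM + 1) scale, with FPKM as deposited (left) and after median-ratio scaling (right). Coloured circles are medians of the 119 members and open squares medians of all 16703 mRNAs tested, with bars from the lower to the upper quartile, and the dotted line marks the gain of 1 that the rule required. The member medians are 1.51, 1.43 and 1.55 on the left and 1.15, 1.59 and 1.36 on the right at SM, PL and BP.

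The rule was also applied to the livers of a pair of replicate numbers at each stage and read in the livers of the number left out. This reading was chosen after seeing the data. The livers left out took no part in picking the transcripts of that reading. The members, and so the rule, had been chosen with earlier results of all these livers known. The shares in the livers left out are thus not independent evidence for the pattern. Without the livers numbered 1, 153 mRNAs met the rule, and in the 4 livers left out the SM, PL and BP livers were all above the JP liver for 133 of them (86.9%), where this held for 25.8% of all mRNAs tested. Without the livers numbered 2, 158 mRNAs were chosen and 147 (93.0%) were higher in all 3 later livers left out, where 24.4% of all were. Without the livers numbered 3, 85 were chosen and 80 (94.1%) were higher, where 43.6% of all were. A difference of at least 1 at all 3 stages was met in the livers left out by 66, 58 and 58 of the mRNAs chosen (43.1%, 36.7% and 68.2%), compared with 0.994%, 0.994% and 2.56% of all tested. The median gains in livers left out were 1.46, 1.26 and 1.55 at SM, 1.05, 1.17 and 1.49 at PL and 1.77, 1.09 and 1.53 at BP, in the order of the numbers left out. The mRNAs chosen were not the same set as the members. Members, which all livers had helped to choose, made up 98 of the 153, 101 of the 158 and 69 of the 85. In the livers left out, most of the mRNAs chosen were higher at all 3 later stages, and fewer gained 1 at every stage. The mRNAs chosen had to reach a stage mean of at least 2. With all livers, 9503 of the mRNAs tested reached that level. The shares over all mRNAs tested were thus not matched on level, and the part of level in the contrast was not tested. Each reading rests on 1 JP liver. Compared with JP livers, the SM and BP livers left out also had higher summed FPKM and the PL livers lower. Whether the members' gains recur in other hens was not tested.

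Membership also moved when a single liver was left out, between 95 members without PL replicate 3 and 153 without PL replicate 1. Of the 119 members, 55 were chosen again without each of the 12 livers in turn, 97 in at least 10 of these 12 choices, and none in fewer than 6. A group of 39 members was chosen in all 12 and also after median-ratio scaling, with 0.1 added in place of 1, and with stage medians in place of means. These 39 had a median smallest gain of 1.48 and a median range among later stages of 0.35. Of these, 37 had no overlap with the JP livers, where this held for 7.87% of all mRNAs tested. They were chosen for gains over JP that stayed under each choice, so the lack of overlap follows in part from the choice.

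The spread among the livers of a stage was read beside that of the 9503 mRNAs tested whose highest stage mean was at least 2, which include the members and were not matched to them on level. The median SD over the 3 livers was 0.26 in JP, 0.19 in SM, 0.34 in PL and 0.29 in BP livers on the log2(FPKM + 1) scale, beside 0.19, 0.15, 0.30 and 0.20 for those mRNAs. An SD above 0.5 was found in 19 members in JP, 16 in SM, 34 in PL and 24 in BP livers, or 16.0%, 13.4%, 28.6% and 20.2%, beside 6.30%, 4.998%, 19.8% and 9.47% of those mRNAs. The median SD was largest at PL over both sets of transcripts, and no test was made of the difference between the sets.

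The livers that ran high or low within their stage were partly those of the whole table. PL replicate 1 was the lowest PL liver in 62.2% of members and in 61.5% of all mRNAs tested, and PL replicate 3 was the highest in 53.8% of members and 65.8% of all. JP replicate 2 was the highest JP liver in 57.1% of members and 50.5% of all. BP differed, since replicate 1 was the highest BP liver in 58.8% of members but in 35.7% of all mRNAs tested, where replicate 3 was the highest in 44.5%. The part of library differences in these shares was not tested.

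The 10 members with the highest levels after the juvenile stage had means over the later stages between 7.41 and 10.25 and smallest gains between 1.17 and 4.58 on the log2(FPKM + 1) scale. JP replicate 3 was the highest JP liver in 8 of these 10, SM replicate 3 the highest SM liver in 7 and BP replicate 1 the highest BP liver in 8, while no PL liver was highest in more than 4. Most of the abundant members thus shared the livers in which they were highest at JP, SM and BP. Between their later and JP livers 9 of the 10 did not overlap, where this held for 7.87% of all mRNAs tested.

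Summed over the 119 members, FPKM was 1563, 1950 and 2173 in the JP livers, 5891, 7336 and 8594 in the SM livers, 6425, 7582 and 10106 in the PL livers and 11341, 7780 and 7581 in the BP livers. The lowest later sum was 5891 and the highest juvenile sum 2173. As a share of the summed FPKM of all mRNAs the members held 0.357% ± 0.060 in JP, 1.04% ± 0.22 in SM, 1.81% ± 0.27 in PL and 1.18% ± 0.30 in BP livers (SD, n = 3 livers each). The mean share was largest at PL, where the summed FPKM of all mRNAs was 408296 to 478988, while the largest mean sum over the members, 8900, was at BP. A few transcripts carried these sums. The 5 members most abundant at a stage made up 45.3% of the members' sum in JP, 50.2% in SM, 53.0% in PL and 54.9% in BP livers.

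The members can be set against transcripts that missed the rule. A gain of at least 1 at all 3 later stages was found in 176 mRNAs, 122 of these had later means within 1 of one another, and 3 of the 122 were too low. A further 54 mRNAs met the limits on gain and level and were left out because their later stages differed by more than 1, and 32 of them were highest at BP, 15 at PL and 7 at SM. The mirror image of the rule, with all 3 later means at least 1 below JP and the same limits on range and level, was met by 94 mRNAs. The members nearest to the limit on gain had smallest gains of 1.00242, 1.00322 and 1.00443, and the nearest mRNAs outside had 0.998346, 0.996472 and 0.996275. At the limit on the later stages the nearest member had a range of 0.999398 and the nearest mRNA outside 1.01749, and at the limit on level the lowest member reached 2.04 and the highest mRNA outside 1.72. On gain, the values just inside and just outside the limit differed by less than the spread between livers.

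The same rule was applied to the 16930 lncRNAs of the other deposited table. It was met by 7 lncRNAs (0.0413%), or 2.04% of the 343 lncRNAs whose highest stage mean was at least 2, where 1.25% of the mRNAs of that level were members, and by 3 lncRNAs after median-ratio scaling. One of the 7 differed from an mRNA member by at most 0.04 on the log2(FPKM + 1) scale in any liver, so it is not a separate observation, and the next closest lncRNA and member differed by up to 0.46. In all 7 the later livers lay above the JP livers without overlap, where 8.45% of the 343 lncRNAs did so, and the rule had chosen them on these values. The most abundant of them had 199, 173.8 and 173.4 FPKM in the JP livers, 430.3, 329 and 390 FPKM in the SM livers, 275, 440 and 618 FPKM in the PL livers and 456, 332 and 383 FPKM in the BP livers. The other 6 were scarce at JP, with stage means between 0.22 and 1.84 on the log2(FPKM + 1) scale. Their gains ranged from 1.18 to 2.28 at SM, 1.38 to 1.93 at PL and 1.32 to 2.38 at BP. These 6 include the lncRNA that matched a member, which had the lowest gains at SM and BP. Without it their lowest gains were 1.53 at SM and 1.41 at BP. The counts of 7 above also include it.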

How the data were processed

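Liver RNA of 12 hens, 3 at each of 4 stages, was depleted of ribosomal RNA and sequenced by the authors as strand-specific libraries. Per the labels and the study's methods, the authors mapped filtered reads to Gallus_gallus-5.0 with HISAT2 2.1.0, assembled and quantified transcripts with StringTie 1.3.3, and deposited FPKM values without read counts, 1 table for mRNAs and 1 for lncRNAs. Without read counts the counting error of the values is not known, so no interval or detection limit is given. All value columns were matched to a hen by name (0 left out).

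The rule for members was applied in Python 3.11.15 with pandas 2.3.3 and numpy 2.4.6. Stage differences were fitted across all 16703 mRNAs with FPKM above 0.1 in at least 3 livers by limma 3.58.1 (R 4.3.3) from log2(FPKM + 1), with a mean for each stage, a variance trend and Benjamini-Hochberg adjustment within each comparison. Members and lists were chosen with earlier results of these data known. The transcripts given by identifier were to be the member with the largest smallest gain and the one with the highest mean over SM, PL and BP. Alternatives were 0.1 added before the logarithm, other filters, median-ratio scaling, moderation without trend, fits of 6 livers, the replicate number as a block, other limits in the rule, stage medians, and each liver left out. Applying the rule to a pair of replicate numbers and reading the livers left out was added after seeing the data. Pathway and cell type lists by gene symbol could not be applied. Figures were drawn with matplotlib 3.10.9.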

Additional observations from a re-analysis of the deposited data

How the results depend on the processing

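The number of mRNAs meeting the rule was 119, and it became 181 with 0.1 added in place of 1 (111 of the 119 among them), 31 with a gain of at least 1.5, 68 with a range of at most 0.5, 94 after median-ratio scaling, 127 with stage medians (90 of the 119) and between 95 and 153 with 1 liver left out. The 7 lncRNAs became 3 after median-ratio scaling, 3 with the larger gain and 3 with the narrower range, and between 6 and 10 with 1 liver left out. Members called higher than at JP numbered between 103 and 116 at SM, PL and BP under other filters, added values, moderation and scaling, 93 at PL when only the 6 livers of PL and JP were fitted, and between 103 and 117 with 1 liver left out. Calls over all mRNAs tested moved more. At SM 3491 were called higher as first fitted, 4580 with 0.1 added and 1871 after median-ratio scaling. At PL 1099 were called higher as first fitted and 610 in the fit of 6 livers. With 1 liver left out they ranged from 2787 to 3678 at SM, 772 to 1294 at PL and 2139 to 2936 at BP. The 12 members called between PL and SM became 34 after median-ratio scaling (where 21.2% of all mRNAs tested were called), 5 in a fit of those 6 livers alone and between 3 and 22 with 1 liver left out. The single member called between BP and SM became 2 after median-ratio scaling and between 0 and 2 with 1 liver left out. Over all mRNAs tested, 94 were called higher and 74 lower at BP than at SM after this scaling. With 1 liver left out, 33 to 126 were called higher and 41 to 293 lower. The 10 members called between BP and PL became 6 in a fit of those 6 livers alone and between 7 and 13 with 1 liver left out. Over all mRNAs tested, the fits of 6 livers called 487 higher and 3864 lower at PL than at SM. They called 2243 higher and 294 lower at BP than at PL. With 1 liver left out, 2327 to 4116 were called higher and 380 to 580 lower at BP than at PL. Members without overlap numbered between 108 and 112 throughout, where 7.87% of all mRNAs tested had none with all livers and no scaling. The gains of the 2 transcripts given by identifier moved by less than the spread between livers in all 48 recalculations. For each count that moved by over 1.5 times, the larger gain and the narrower range select fewer transcripts by construction, and the cause was not tested for the others.

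The replicate numbers name different hens and do not pair them. Of 18 pairs of same-numbered livers from different stages, 0 had a correlation of their deviations from the stage means above 0.1 (range -0.11 to 0.07, across mRNAs), and 1 of 12 livers correlated best with its own number. With the replicate number as a block, 116, 112 and 116 members were called higher than JP at SM, PL and BP, 11 between PL and SM, 2 between BP and SM and 10 between BP and PL. Over all 16703 mRNAs tested, 3465, 1042 and 2692 were called higher than JP with this block. Between PL and SM 560 were called higher and 4296 lower, between BP and SM 58 and 86, and between BP and PL 3118 and 515.

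Several limits bear on the members. With 3 hens a stage, an exact permutation test of 1 transcript between a pair of stages cannot pass 0.05, and calls rest on spread pooled across transcripts. FPKM without counts leaves the precision of the 25 members with a mean under 3 over the later stages unknown. The same holds for low JP values of other members. Identifiers without gene names leave functions, cell type markers and shared genes among transcripts not analysed here.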
